A study of Mus musculus with 8 samples.

Results

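The Reg genes encode small secreted proteins of the C-type lectin family, and the family was taken as the 6 genes Reg1, Reg3a, Reg3b, Reg3d, Reg3g and Reg4 of the 55414 gene IDs in the count table, matched by Ensembl ID to their GENCODE symbols. Their transcripts were measured by bulk RNA sequencing of Paneth cells sorted from the small intestine of wild-type C57BL/6J mice. The 4 water mice drank Milli-Q water, and the 4 zinc mice drank water with 25 mM ZnSO4 for 7 days. Each library came from the sorted cells of a single mouse, both groups carried the same genotype, and the age and sex of the mice are not given in the labels.

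Reg3g and Reg3b are antibacterial lectins of the gut epithelium. Reg3g binds peptidoglycan of Gram-positive bacteria and Reg3b binds lipid A of Gram-negative bacteria. Both are textbook targets of microbial sensing through MyD88 and of interleukin-22 signalling through STAT3. Reg4 marks secretory cells of the crypt, Reg1 was first known as a pancreatic stone protein, and Reg3a and Reg3d are further Reg3 lectins whose mouse transcripts are best known from the pancreas and gut.

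The 150 bases before the RefSeq start of the 3 abundant members are shown because these genes hold nearly all Reg counts. They were taken from the RefSeq promoter table and placed by exact match on GRCm39. Capitals mark matches to the motifs named below, and each sequence runs 5′ to 3′ on the strand of its gene.
Reg3b, plus strand, chr6:78347718-78347867: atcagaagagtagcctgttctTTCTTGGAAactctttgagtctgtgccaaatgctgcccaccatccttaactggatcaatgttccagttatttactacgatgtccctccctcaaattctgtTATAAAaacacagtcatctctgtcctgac
Reg3g, minus strand, chr6:78445858-78446007: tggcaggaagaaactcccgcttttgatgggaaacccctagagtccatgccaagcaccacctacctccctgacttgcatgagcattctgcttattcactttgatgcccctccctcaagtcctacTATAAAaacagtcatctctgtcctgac
Reg4, plus strand, chr3:98129322-98129471: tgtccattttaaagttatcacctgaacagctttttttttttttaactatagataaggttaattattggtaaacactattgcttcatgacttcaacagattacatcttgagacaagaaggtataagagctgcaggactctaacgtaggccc

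All 7 Reg genes of the annotation, the 6 members and Reg2, had an entry in that table. 4 of the 7 windows held the TATA box TATAAA, a motif found in 7.57% of 32851 mouse promoters of this length. In Reg3b it lay 29 to 24 bases before the start and in Reg3g 27 to 22 bases before it, and Reg1 and Reg2 were the other two. The palindromic STAT motif TTCNNNGAA was found in 1 of the 7 windows, that of Reg3b (bases 129 to 121 before the start), and in 4.09% of all promoters. The NF-kappaB motif was searched only as GGG and TTTCC with 2 bases between them (0.925% of promoters), and looser forms were not searched. These letters and the core of the metal response element, TGCACNC or TGCGCNC (14.7%), had 0 matches in the 7 windows. That says only that these exact letters are not in this stretch, and not that the windows lack NF-kappaB sites. Both strands were searched, and no match overlapped another. Reg3b and Reg3g were also the most alike of all upstream pairs, with 69.3% identical bases, against 42.7% to 56.7% for the other pairs.

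Reg3b (ENSMUSG00000071356), Reg3d (ENSMUSG00000068341), Reg3a (ENSMUSG00000079516), Reg1 (ENSMUSG00000059654) and Reg3g (ENSMUSG00000030017) lie in a cluster on chromosome 6 of GRCm39. Reg3b spans 78347640 to 78350455 on the plus strand and opens the cluster. Reg3d spans 78352857 to 78355848 on the minus strand, Reg3a 78357692 to 78360810 on the plus strand and Reg1 78399694 to 78405828 on the plus strand. Reg3g spans 78443246 to 78445859 on the minus strand and closes it, and Reg4 (ENSMUSG00000027876) lies apart on chromosome 3, from 98129468 to 98144066 on the plus strand. Each member has 6 exons in its canonical transcript, and none overlaps another annotated gene. The coding sequences of Reg3b and Reg3g share 76.0% of their bases. Even so, 100% of the stretches of 75 bases in each member were absent from every other GENCODE gene, so reads of that length would have 1 gene of origin.

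The family was unevenly used in these cells. Per kilobase of canonical transcript and on the TMM scale (CPM, counts per 1e6 of a library size adjusted by trimmed means), Reg4 was the highest member, with a mean of 3678 CPM per kb in water and 4337 in zinc. Reg3g came next with 1771 and 755 CPM per kb, followed by Reg3b with 245 and 66.9. Reg1 had 0.842 and 0.772 CPM per kb and Reg3a 0.498 and 0.196, with ranges that overlapped in water and did not in zinc. Reg3d had 0 counts in all 8 libraries, as did Reg2, the remaining mouse Reg gene, and 3 counts would have been 0.115 to 0.188 CPM. By mean share of counts, Reg4 was gene 18, Reg3g gene 38 and Reg3b gene 488 of 20836 genes with counts. The order Reg4, Reg3g, Reg3b held in every library.

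**Figure D1:**
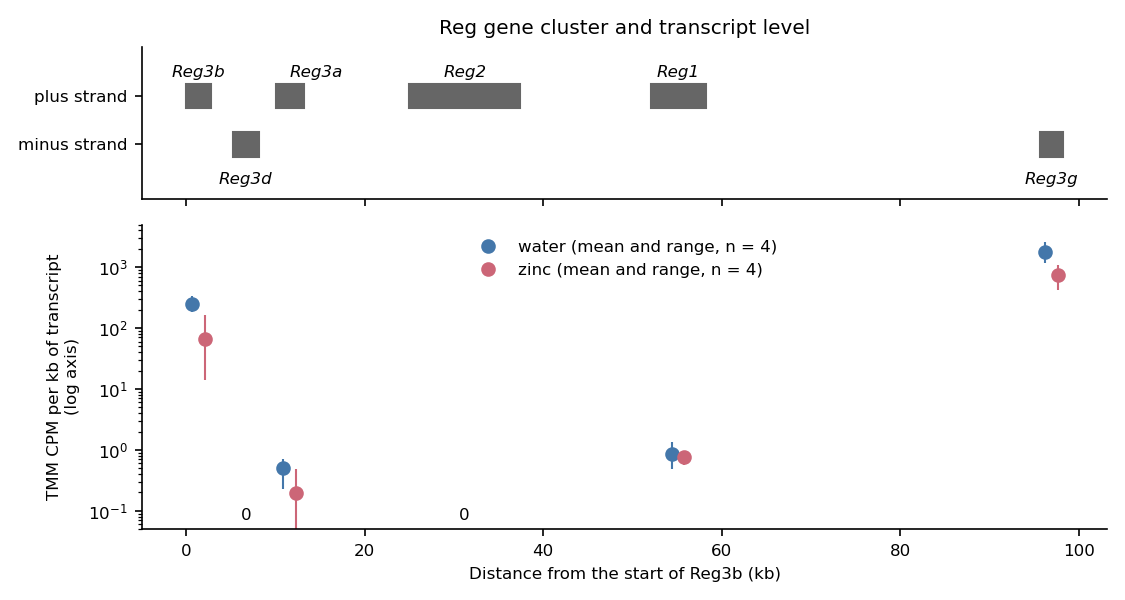
The upper panel maps the chromosome 6 cluster to scale, with distance in kb from the start of Reg3b. The lower panel gives the mean TMM CPM per kb (log axis) for water and zinc with vertical lines from the lowest to the highest of 4 libraries. Reg3b and Reg3g, at the ends of the cluster, stand far above Reg3a and Reg1, a 0 marks genes without counts, and the zinc line of Reg3a runs off the axis because 1 library had 0 counts.

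Library totals ran from 20760764 to 24117111 counts, and TMM factors from 0.764 (water replicate 1) to 1.23 (zinc replicate 4). The label of sorted Paneth cells was met by the markers: all 20 Paneth markers passed the low-count filter, and their summed level was 395349 to 800838 CPM in water and 376596 to 781545 CPM in zinc. Summed immune markers stayed at or below 2.10 CPM and stromal and endothelial markers at or below 0.625 CPM, and Cd3e, Cd3d, Col1a1 and Cdh5 were at 0 in every library. Goblet markers, many of them shared with Paneth cells, summed to 11707 to 19756 CPM in water and 14568 to 18624 CPM in zinc. Within this list Clca1 varied more, from 11.4 to 238 CPM in water and 5.52 to 124 CPM in zinc. Zg16 ran from 12.6 to 82.1 and from 8.25 to 172 CPM, whereas Muc2 and Tff3 varied less. Clca1 and Zg16 were highest in replicate 4 of each group, which also had the lowest Paneth sum. The part of goblet cells in the Reg values was not tested. Enterocyte markers summed to 776 to 921 and 802 to 928 CPM, enteroendocrine markers to 41.8 to 111 and 45.3 to 90.4 CPM, and tuft markers to 17.1 to 144 and 21.4 to 100 CPM. The most abundant marker was Defa24 for Paneth cells, Spink4 for goblet cells, Anpep for enterocytes, Sct for enteroendocrine cells, Dclk1 for tuft cells and Itgam for immune cells.

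Across all genes, edgeR called 10 of 11988 tested genes between zinc and water at an adjusted p of 0.05 (percent called 0.0834), 3 higher (0.025%) and 7 lower (0.0584%) in zinc. Of the 6 Reg genes, 4 passed the low-count filter and 0 of these 4 were called. Without adjustment, 2 of the 4 had p below 0.05, Reg3g and Reg3b, against 558 of all tested genes (4.65%), 337 of them lower in zinc (2.81%). These were also the 2 members whose zinc libraries all lay below all water libraries, which held for 191 tested genes (1.59%). The reverse held for 149 (1.24%), which makes 340 genes without overlap in all (2.84%). Reg4 and Reg1 had overlapping groups. The members were chosen with earlier results of these data known, so these counts of members are a description only.

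Reg3g had 22101, 47494, 27767 and 23940 counts in water replicates 1 to 4, or 1382, 2040, 1175 and 914 TMM CPM. In zinc replicates 1 to 4 it had 14091, 8803, 19182 and 8483 counts, or 837, 425, 758 and 329 TMM CPM. The highest zinc library, replicate 1, lay just under the lowest water library, replicate 4, and water replicate 2 was the highest of all. The means were 1378 ± 481 CPM in water and 587 ± 248 CPM in zinc (SD, n = 4), a 2.35-fold lower fitted level in zinc. The log2 fold change was -1.23 (SE 0.34), with an adjusted p of 0.794 in edgeR's quasi-likelihood test (unadjusted p = 0.00570). Of the 11988 tested genes, 85 had a log2 fold change this low or lower. In bulk samples, a smaller number of Reg3g-producing cells cannot be told apart from less Reg3g RNA in each cell.

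The call for Reg3g depended on the scaling. When libraries were scaled by their totals alone, the same test gave a log2 fold change of -1.27 (SE 0.24) and an adjusted p of 0.0382, past the threshold, where 8 genes in all were called (0.0667%), 6 of them lower (0.0501%). The CPM on library totals were 1055, 2074, 1251 and 1108 in water and 648, 424, 795 and 403 in zinc. These groups do not overlap either, as for 0.726% of tested genes in this direction on this scale. Leaving out 1 library at a time under this scaling, chosen after the data had been seen, kept Reg3g past the threshold in 3 of 8 cases. These were the fits without water replicate 1 (-1.38, adjusted p = 3.47e-06), water replicate 4 (-1.36, adjusted p = 0.00716) and zinc replicate 3 (-1.48, adjusted p = 0.00351). Over the 8 cases the adjusted p in edgeR reached 0.231.

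Reg3b differed more between the groups, and less evenly. It had 3372, 6079, 3648 and 3805 counts in water, or 211, 261, 154 and 145 TMM CPM. In zinc it had 642, 639, 3321 and 283 counts, or 38.1, 30.9, 131 and 11.0 TMM CPM. Zinc replicate 3 stood just below the lowest water library, whereas the other 3 zinc libraries were at most 38.1 CPM. The means were 193 ± 54.0 CPM in water and 52.8 ± 53.5 CPM in zinc (SD, n = 4), 3.65-fold lower in zinc. The log2 fold change was -1.87 (SE 0.75), with an adjusted p of 0.998 in edgeR (unadjusted p = 0.0467), and 17 tested genes had a change this low or lower. Without zinc replicate 3 the log2 fold change of Reg3b was -2.87 (adjusted p = 0.457 in edgeR). It passed the threshold in 2 fits without that library, limma-voom (-3.06, adjusted p = 0.000578) and edgeR with library totals only (-2.96, adjusted p = 1.02e-07), both chosen after the data had been seen.

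Zinc replicate 3 also differed in other genes. Guca2a, which encodes guanylin and was the most abundant gene of a list of distal small intestine markers, had 350 CPM in zinc replicate 3 and 813 to 840 CPM in the other zinc libraries. The sum of the 11 distal markers, 1 of which (Fgf15) was at 0 in every library, was 372 CPM in zinc replicate 3 and 849 to 908 CPM in the other zinc libraries. Guca2a made up most of this sum in every library, so the sum largely repeats its values. Among the water libraries, replicate 3 was the low one, with a sum of 385 CPM against 663 to 765 CPM, and its Reg3b level was 154 CPM. The 10 proximal markers summed to 152 to 234 CPM in water and 108 to 188 CPM in zinc. By this sum, zinc replicate 3 (188 CPM) did not stand apart from zinc replicate 1 (186 CPM). Single proximal markers differed in this. Zinc replicate 3 was the top zinc library for Gata4 (56.8 CPM, next 45.5), Onecut2 (17.8 CPM, next 9.03) and Mttp (25.6 CPM, next 21.3). The same held for Adh6a (2.92 CPM, next 1.51) and, by little, Pdx1 (3.12 CPM, next 3.09). It did not hold for the other tested ones, Cybrd1 (63.4 CPM), which was the most abundant, Gkn3 (17.0 CPM) and Slc40a1 (1.03 CPM). Ifitm3, an interferon-induced membrane gene, was at 78.0 CPM in zinc replicate 3 and at 33.3 to 37.6 CPM in the other zinc libraries. In water it had 62.2 to 74.7 CPM, so zinc replicate 3 was near the water level and the other zinc libraries were the low ones. Ifitm3 was picked after its values were seen, and other products that respond to interleukin-22 or microbes went both ways. Among the zinc libraries, replicate 3 was the highest for Dmbt1 (216 CPM) and the lowest for Pigr (960 CPM) and Duox2 (24.2 CPM). The part of these differences in the Reg3b values was not tested.

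**Figure D2:**
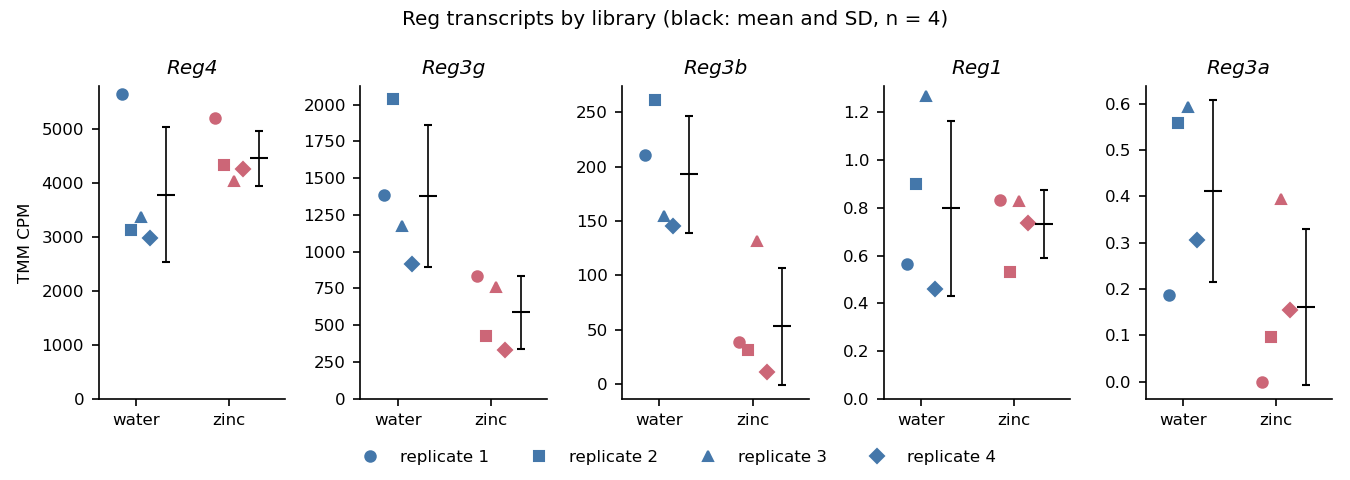
TMM CPM of Reg4, Reg3g, Reg3b, Reg1 and Reg3a in each library, with 1 symbol per replicate number and the mean and SD (n = 4) in black. For Reg3g and Reg3b all zinc points lie below all water points, with zinc replicate 3 at 131 CPM just under water replicate 4 at 145 CPM for Reg3b. Reg4, Reg1 and Reg3a overlap.

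The ratio between the 2 antibacterial lectins was steadier in water than in zinc. Reg3b had 15.3, 12.8, 13.1 and 15.9 counts per 100 counts of Reg3g in water replicates 1 to 4. In zinc it had 4.56, 7.26, 17.3 and 3.34, so that 3 of the 4 zinc libraries lay below all water libraries and zinc replicate 3 above all of them. The means were 14.3 ± 1.53 in water and 8.12 ± 6.35 in zinc (SD, n = 4), and the groups overlapped. Across the 8 libraries Reg3b and Reg3g were the most alike pair of members in log2 CPM (Pearson r = 0.909, and 0.761 after the group means were removed). The points share their libraries and scaling, and the value is a description.

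Reg4, the most abundant member, did not share the lower zinc values. It had 90169, 72821, 79631 and 77887 counts in water, or 5640, 3129, 3368 and 2974 TMM CPM. In zinc it had 87491, 89804, 101936 and 109790 counts, or 5195, 4336, 4027 and 4258 TMM CPM. Water replicate 1 was the highest of all libraries, and the other 3 water libraries lay below all zinc libraries. The means were 3778 ± 1252 CPM in water and 4454 ± 511 CPM in zinc (SD, n = 4). The log2 fold change was 0.24 (SE 0.22), with an adjusted p of 0.998 in edgeR, and was 0.49 without water replicate 1 (adjusted p = 0.635). Water replicate 1 had the smallest TMM factor, and on library totals it held 4304 CPM, with the other water libraries at 3181 to 3606 CPM and the zinc libraries at 4022 to 5213 CPM.

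In the counts as measured, Reg4 made up more of the Reg sum in zinc than in water, while the sum differed little. These shares restate the values of the single members above and were not tested. With TMM scaling no Reg gene was called in edgeR. The 6 genes together took 0.552%, 0.552%, 0.501% and 0.489% of counts in water and 0.470%, 0.478%, 0.516% and 0.563% in zinc. The means were 0.523% ± 0.0334 and 0.507% ± 0.0425 (SD, n = 4), and the groups overlapped. Of these Reg counts, Reg4 held 78.0%, 57.6%, 71.7% and 73.7% in water and 85.6%, 90.5%, 81.9% and 92.6% in zinc, so that every zinc library lay above every water library. The mean share of Reg3g was 26.1% ± 8.03 in water and 11.3% ± 3.92 in zinc, and that of Reg3b 3.65% ± 0.820 and 1.04% ± 1.10 (SD, n = 4). There were 2.93 ± 1.06 Reg4 counts per Reg3g count in water and 8.67 ± 3.56 in zinc. These shares are of counts, which also rise with transcript length, and no test was run on a sum over the members. How often such shares part the groups for other sets of genes was not computed.

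**Figure D3:**
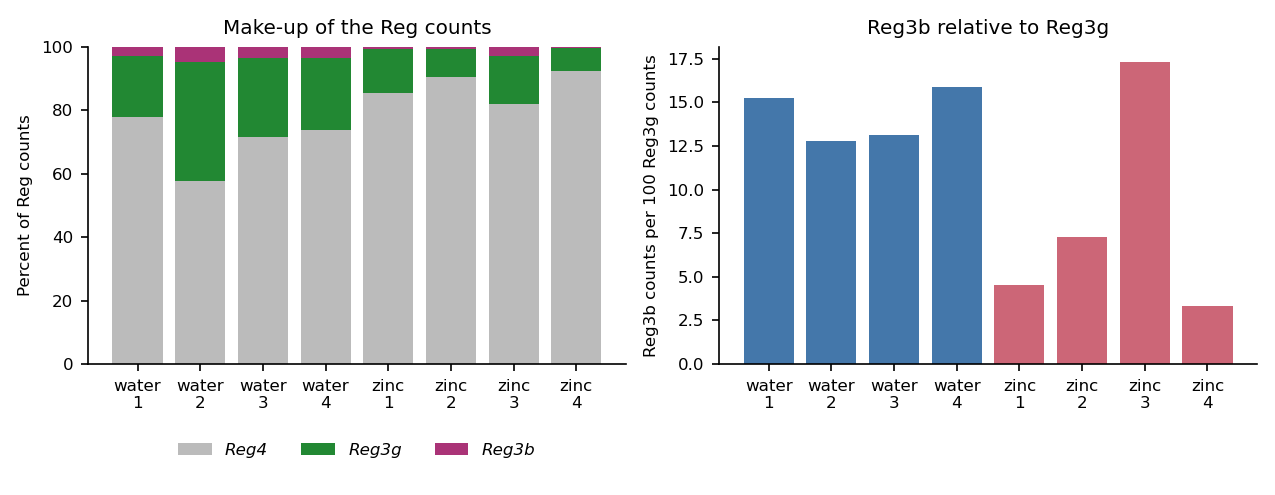
Left, the percent of Reg counts from Reg4, Reg3g and Reg3b in each library, with Reg1 and Reg3a too small to see. Right, Reg3b counts per 100 Reg3g counts. Reg4 holds 57.6% to 78.0% in water and 81.9% to 92.6% in zinc, and zinc replicate 3 has the highest Reg3b to Reg3g ratio (17.3).

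The remaining members were close to the limit of detection. Reg1 had 9, 21, 30 and 12 counts in water and 14, 11, 21 and 19 in zinc. Its log2 fold change was -0.13 (SE 0.48, adjusted p = 0.998 in edgeR), and without water replicate 3 it turned to 0.18. Reg3a had 3, 13, 14 and 8 counts in water and 0, 2, 10 and 4 in zinc, and missed the low-count filter. The highest zinc library for Reg3a was again replicate 3, the groups overlapped, and without the filter the log2 fold change was -1.27 (SE 0.96, adjusted p = 0.765 in edgeR). No difference was detected in either gene.

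**Figure D4:**
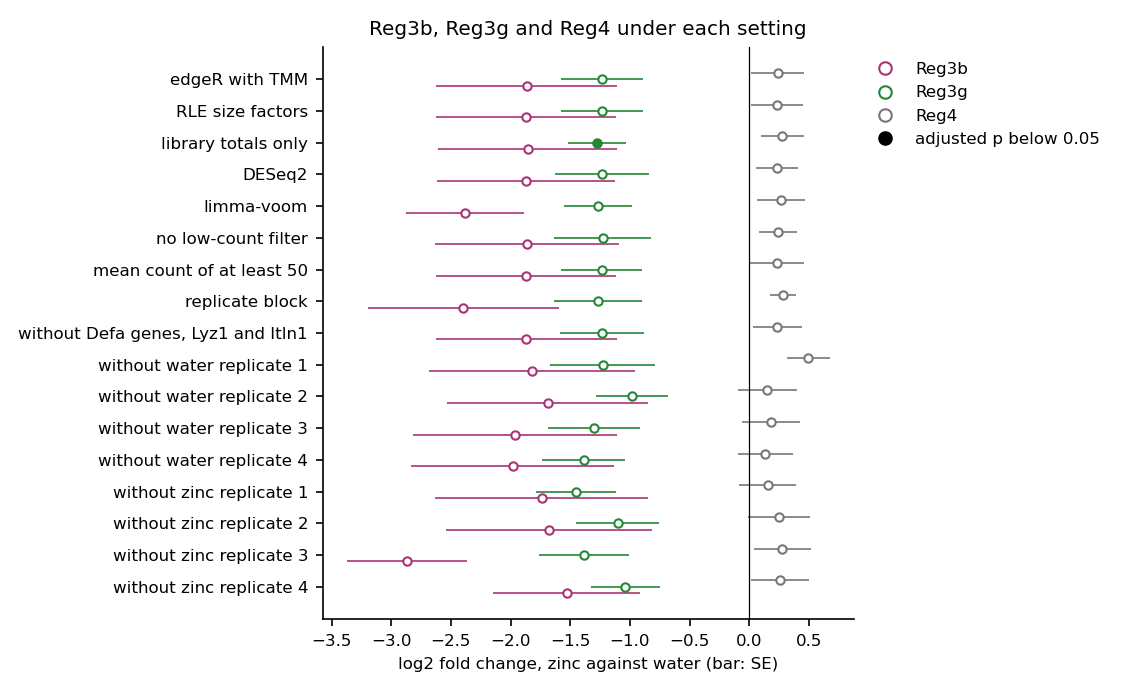
log2 fold change (zinc against water, with SE) of Reg3b, Reg3g and Reg4 under each setting, with filled points for adjusted p below 0.05. Reg3b ranges from -2.87 to -1.53 and Reg3g from -1.45 to -0.98, Reg4 from 0.14 to 0.49, and the 1 filled point is Reg3g with scaling by library totals alone.

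The genes around the Reg family were then described by lists. Of 20 genes from the interleukin-22 and gp130 receptors to STAT3, 19 were tested and 0 were called, 12 had a log2 fold change below 0, and the median was -0.06. Over all tested genes, 48.1% were below 0 and the median was 0.01. Bcl3, a nuclear IkappaB protein and STAT3 target, had the smallest p of this list (log2 fold change -0.39, SE 0.16, adjusted p = 0.998 in edgeR). Il22ra1, the epithelial chain of the interleukin-22 receptor, averaged 30.2 ± 4.17 CPM in water and 23.2 ± 6.40 CPM in zinc (SD, n = 4), and the groups overlapped.

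Of 30 genes from Toll-like and interleukin-1 receptors to MyD88 and NF-kappaB, 25 were tested and 0 called, 15 were below 0, and the median log2 fold change was -0.08. Nfkbia, the inhibitor of NF-kappaB that NF-kappaB itself induces, had the smallest p. It had 25.9, 30.2, 32.9 and 27.8 CPM in water and 24.11, 18.4, 21.1 and 14.9 CPM in zinc. These groups do not overlap, as for 1.59% of all tested genes in this direction. The log2 fold change of Nfkbia was -0.58 (SE 0.15, adjusted p = 0.385 in edgeR).

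The third list held 29 other epithelial products that respond to interleukin-22 or to microbes. 15 were tested, 0 were called, and all 15 had a log2 fold change below 0, with a median of -0.61. Of all tested genes, 48.1% were below 0. The list was written with earlier results of these data known, so this shared direction is a description only. Duox2, an epithelial oxidase that makes hydrogen peroxide, had the smallest p (42.8 ± 7.27 CPM in water and 27.8 ± 5.96 CPM in zinc, SD, n = 4). Its log2 fold change was -0.62 (SE 0.15, adjusted p = 0.383 in edgeR). In 3 of the 15 all zinc libraries lay below all water libraries, as in 1.59% of all tested genes. These were Pigr, Duoxa2 and Nos2, which are named here after their values were seen. Duoxa2 and Nos2 were low, with means of 2.76 and 4.45 CPM in water and 1.16 and 0.580 CPM in zinc. Pigr, the receptor that carries immunoglobulin A across the epithelium, had 1211, 1488, 1915 and 1496 CPM in water and 972, 1014, 960 and 1063 CPM in zinc. Its log2 fold change was -0.61 (SE 0.16, adjusted p = 0.403 in edgeR). Ang4, an antimicrobial ribonuclease of Paneth cell granules and the most abundant gene of the list, had a log2 fold change of -0.01 (SE 0.27). 6 of the 29 were at 0 in every library, among them S100a8 and S100a9, which neutrophils make in large amounts.

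The last list held 6 genes of exostosins and candidate Reg receptors. All 6 were tested, 0 were called, and the median log2 fold change was -0.06. Extl3, which has been described as a Reg receptor, averaged 32.1 ± 4.00 CPM in water and 30.8 ± 2.60 CPM in zinc (SD, n = 4). Extl1, a heparan sulphate glycosyltransferase gene, had the smallest p (log2 fold change -0.75, SE 0.21, adjusted p = 0.520 in edgeR). Its groups do not overlap, as for 1.59% of all tested genes in this direction.

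**Figure D5:**
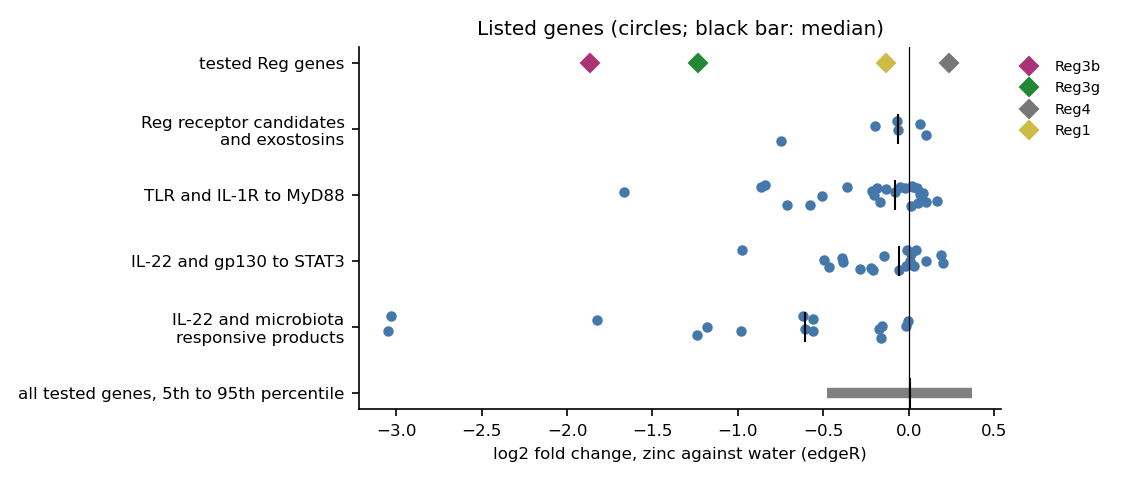
log2 fold change (zinc against water) of each tested gene of the 4 lists and of the 4 tested Reg genes, with black bars at the list medians and a grey bar from the 5th to the 95th percentile of all tested genes. All 15 tested responsive products, a list written with earlier results of these data known, lie below 0, with a median of -0.61.

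Markers of crypt stem and dividing cells had overlapping summed levels in the groups, and 0 of them were called. The 7 stem markers, of which 6 had a log2 fold change below 0, summed to 4855 to 6394 CPM in water and 3598 to 5035 CPM in zinc. Olfm4, the most abundant of them, had a log2 fold change of -0.48 (SE 0.19, adjusted p = 0.998 in edgeR). The 6 proliferation markers, with Top2a the most abundant, all had a log2 fold change above 0 and summed to 234 to 326 CPM in water and 305 to 396 CPM in zinc. None of these markers was at 0 in every library, and their part in the Reg3g and Reg3b values was not tested. Of 12 pancreatic acinar genes, which would mark pancreas carried along with the gut, 1 was tested, Clps, which Paneth cells also express, and 6 were at 0 in every library.

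The genes whose levels most resembled those of each Reg gene were ranked by Pearson r of log2 CPM over the 8 libraries, among 11090 genes with a mean of at least 1 CPM. For Reg3g they were Zfp131 (0.969), Mat2a (0.965), Lats1 (0.958), Pcca (0.956) and Slc39a10 (0.951). Slc39a10, a zinc importer gene, had 30.3 to 44.8 CPM in water and 20.7 to 29.2 CPM in zinc, with a log2 fold change of -0.59 (SE 0.15, adjusted p = 0.388 in edgeR). For Reg3b they were Sugp2 (0.962), Ubap1 (0.956), Fbxo42 (0.948), Zfp131 (0.936) and Thap1 (0.931). Zfp131 was on both lists. For Reg4 they were Mfsd14a (0.984), Mmgt2 (0.973), Tmem30a (0.969), Agpat3 (0.966) and Sult1d1 (0.958), and for Reg1 Nek9, Pus10, Lrsam1, Cwf19l1 and Zfp777. The 8 libraries are few for a search over this many genes, and the r values only order the genes.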

How the data were processed

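The table deposited by the authors holds raw counts of reads, with genes as rows by Ensembl ID and the 8 libraries as columns. Per the labels, small intestinal cells were sorted by FACS and total RNA went into a stranded mRNA kit. The submitters' processing notes name FastQC 0.12.0, STAR 2.7.0a, DESeq2 and the build mm39. Not given in the sources used here are the counting program, its strand setting and its treatment of reads with several matches. Symbols and positions came from GENCODE M39 on GRCm39, which matched 54749 of 55414 IDs.

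Zinc was compared with water in edgeR 4.0.16 (R 4.3.3) with TMM scaling, the default low-count filter (minimum count 10), robust quasi-likelihood fits of the treatment alone and Benjamini-Hochberg adjustment over all 11988 tested genes. The SE of a log2 fold change was its size divided by the square root of F. All libraries held 20760764 to 24117111 counts, so that 3 counts, the limit a count of 0 allows, were 0.115 to 0.188 CPM. Without molecular identifiers such limits cover counting error only. Libraries of a group differed by 31.2 to 131 times the sampling variance in a chi-square test, and each was 1 replicate. Python 3.11.15 was used for shares and sequences.

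The alternatives were RLE factors, library totals only, DESeq2 1.42.0, limma-voom (limma 3.58.1), the replicate number as a block, no filter, a filter at a mean of 50 counts, Defa genes with Lyz1 and Itln1 left out, and each library left out in turn. The members and lists were chosen with earlier results of these data known. Named were all members and Reg2, of each pathway list any called gene and the one with the smallest p, the 5 genes most like Reg3g, Reg3b, Reg1 and Reg4, and the most abundant marker of each cell type. Genes named outside this rule, such as Ifitm3, Ang4, Il22ra1 and Extl3, were chosen after their values were seen.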

Additional observations from a re-analysis of the deposited data

Results flagged for a closer look

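Reg4 in water replicate 1 stood far from the other 3 water libraries, at 5640 CPM against 2974 to 3368 CPM. It was 1 of 16 groups of 4 libraries past Dixon's 95% critical value for 4 samples, and chance flags about 1 in 20 groups. With scaling by library totals the same library was not past it (gap of 0.622 of the range), but Reg3b was in both groups. Reg3b then had 266 CPM in water replicate 2 (gap of 0.855 of the range), with 161 to 176 CPM in the other water libraries, and 138 CPM in zinc replicate 3 (gap of 0.860), with 13.4 to 30.8 CPM in the other zinc libraries.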

How the results depend on the processing

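Reg3g and Reg3b had negative log2 fold changes and Reg4 positive ones in all 16 alternatives set out above. With scaling by library totals only, 1 Reg gene passed the threshold, Reg3g at -1.27. Under that scaling Reg3g also passed without water replicate 1 (-1.38), water replicate 4 (-1.36) and zinc replicate 3 (-1.48), and ranged from -1.48 to -1.004 over the 8 libraries left out. Reg3b passed in limma-voom without zinc replicate 3 (-3.06) and with library totals only without it (-2.96). With each library left out in turn under TMM, Reg3b ranged from -2.87 to -1.53, Reg3g from -1.45 to -0.98, Reg4 from 0.14 to 0.49 and Reg1 from -0.34 to 0.18, with Reg1 turning to 0.18 without water replicate 3. Over the 16 alternatives the adjusted p ran from 0.0382 to 1.0 for Reg3g, from 0.169 to 1.0 for Reg3b and from 0.576 to 1.0 for Reg4. The cause of these shifts was not tested.

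Over all genes, the 10 calls became 34 in DESeq2 (8 higher, 26 lower), 66 without the low-count filter (11 higher, 55 lower), where 20836 genes were tested, and 1 to 15 with each library left out, the 1 without water replicate 2. Of the responsive products 1 passed in DESeq2 (Pigr), 3 without the filter, 3 with the replicate block and 0 to 1 with a library left out (Ifitm3 without zinc replicate 3, Duox2 without zinc replicate 4), and of the MyD88 list 1 passed without the filter (Nfkbia). Whether the replicate numbers pair the samples is not given in the labels. Deviations from the group means correlated at 0.233, 0.000055, 0.127 and 0.263 for same-numbered libraries 1 to 4 and at most at 0.040 for different numbers, so that 3 of 4 pairs, and not replicate 2, were above 0.1. The TMM factors of water and zinc libraries also ran in step by number, which is a hint from the data and not from the design. With the replicate block 32 genes were called (6 higher, 26 lower), and Reg3b was at -2.40 (adjusted p = 0.645), Reg3g at -1.27 (adjusted p = 0.6005) and Reg4 at 0.28 (adjusted p = 0.576) in edgeR, all short of the threshold. Reg3a and Reg3d gave no value after the filter, and at 0 to 30 counts per library the depth limits what Reg3a and Reg1 can show.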
